A study of Mus musculus with 54 samples.

Results

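Tumors that 4T1 cells had formed in mice were compared with 4T1 clones grown in dishes. 4T1 is a mouse mammary carcinoma line. The comparison holds the 4 libraries labelled as orthotopic tumor, meaning tumor grown at the organ of origin, out of 54 RNA-seq libraries in all. They come from 2 specimens, Tumor_1 and Tumor_2, each with a library lettered A and a library lettered B. The reference group is the 46 libraries of 23 clones, each clone started from a single sorted cell and again represented by libraries A and B. Clones E and T are labelled as intravasating, which means that their cells entered the blood, and the other 21 as non-intravasating. The remaining 4 libraries, from lung metastases, were not part of the comparison.

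All groups carry the same 4T1 background, and the labels name no other allele and no agent in either group. The labels give one growth protocol, culture in a high-glucose medium with fetal bovine and fetal calf serum, for every library, tumors included. They do not say whether a tumor was started from the parental line, a pool or a single clone, nor the strain, sex or age of the mice. They also do not say whether carcinoma cells were separated from mouse tissue before RNA was taken, or whether libraries A and B of a specimen were separate samples. The p-values and standard errors below therefore measure only the spread between these specimens and clones, part of which may be technical. A single variance per gene was fitted over the 2 tumors and 23 clones together, so it comes mostly from the spread among clones. The tumors are assumed to vary alike, and only 2 tumors stand for the whole condition.

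A carcinoma that grows in the mammary gland is supplied by host vessels and entered by macrophages, neutrophils and fibroblasts, and its own cells meet low oxygen, matrix and the cytokines of these neighbours. 4T1 tumors are known for drawing large numbers of myeloid cells through colony-stimulating factors and chemokines that bind the receptor Cxcr2. A bulk library of such tissue sums the RNA of all cells in it, whereas a clone in a dish contributes carcinoma RNA alone. In bulk libraries, fewer cells of a type and less RNA per cell cannot be told apart.

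The tumor libraries held 12183058 to 17369960 reads and the clone libraries 8849257 to 31609870. A median of 16499.5 genes had at least 1 read among the tumor libraries and 14950.5 among the clones. Library B of Tumor_2 stood apart. Its values correlated with those of library A of the same tumor at 0.9812 across genes, against 0.9969 for the libraries of Tumor_1 and 0.9947 to 0.9983 for those of the clones. The nuclear RNA Malat1 took 3.45% of its reads and 0.782% to 1.29% of the reads of the other tumor libraries. Gene and list calls, the ranges and the comparison of the tumors with each other were therefore recomputed without this library.

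Levels are given as normalized counts, that is, reads scaled to a common library size. Differences, tumors minus clones, are on the deposited log2 scale, which is flattened at low counts, so the difference of a scarce gene is smaller than the log2 ratio of its counts. Each tumor and each clone entered the test as the mean of its libraries, and a gene was called at a limma adjusted p under 0.05.

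The tumors differed from the clones mostly by genes that were higher. Of 13875 genes tested, 576 were higher in the tumors, which is 4.15%, and 199 were lower, which is 1.43%, or 5.59% in both directions together. The median difference over all genes was 0.04. These shares and this median are the background for the gene lists below. Most of the higher genes were scarce: 314 of the 576 had a tumor mean under 50 counts, and 238 genes passed the filter on low counts only because of the tumor libraries, so that these had to differ. Of those 238, 138 were called. Lyz2, Ccl6, Bgn and Xist are among them, and for such genes the levels are given with no p. The lower genes were abundant, and 1 of the 199 had a clone mean under 50 counts. Both tumors lay above all 23 clones for, again, 576 genes, which is 4.15% of those tested, and 426 of these were called. They lay below all 23 clones for 286 genes, or 2.06%, of which 150 were called. With each of the 4 tumor libraries taken singly, 257 genes (1.85%) lay above every clone mean and 136 (0.98%) below.

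**Figure D1:**
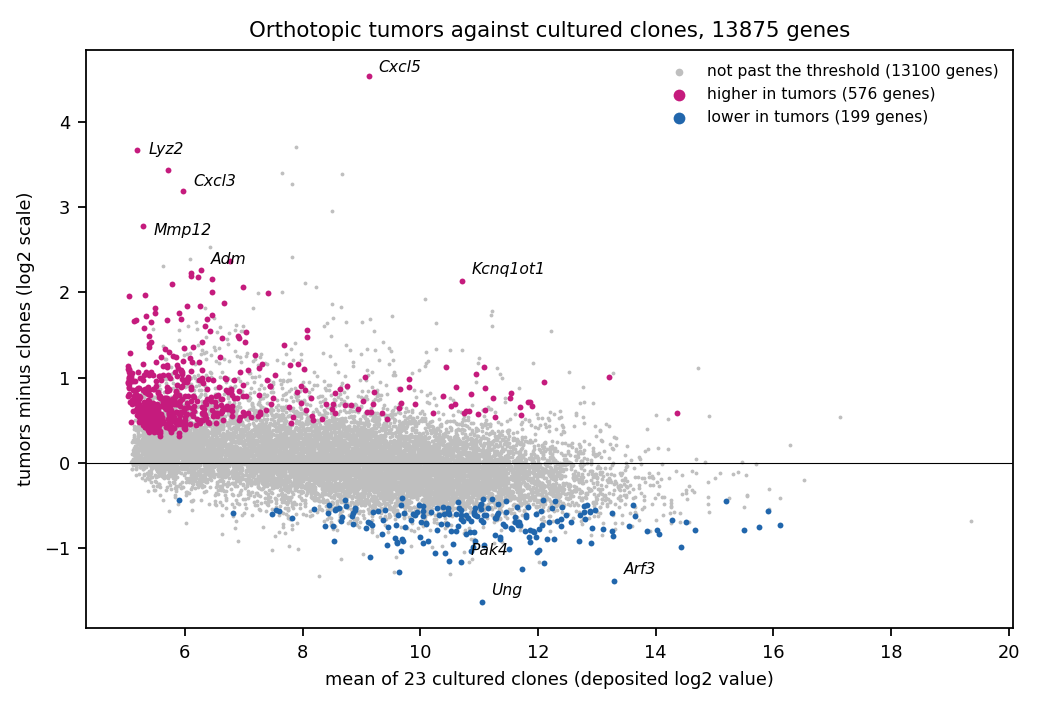
Each point is 1 of 13875 genes, placed by its mean over the 23 clones (x axis, deposited log2 value) and by the difference of tumors minus clones (y axis, log2 scale). The 576 higher genes gather at low clone levels, and the 199 lower genes at middle and high levels, down to Ung and Arf3.

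The number of calls depended on library B of Tumor_2. Without it 242 genes were higher, which is 1.76% of 13754, and 95 were lower, which is 0.691%. Of these, 233 and 80 had also been called with all libraries. In 76.2% of the higher genes the highest of the 4 tumor values was in this library, against 44.2% of all genes, and in 67.3% of the lower genes it held the lowest, against 37.7% of all genes. The calls were made from means that include this library, so an excess of this kind is built in and gives no separate support. The part of its RNA quality in the calls was not tested. A second source of spread was clone G, in which many inflammatory genes were far above the other clones. Without clone G the test called 717 genes higher, or 5.19% of 13810, and 284 lower, or 2.06%.

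Large rises outside the range of all clones were in Lyz2, Cxcl3, Mmp12, Gpr116, Adm, H19, Bst1, Lsp1, Kcnq1ot1, Phxr4 and Ccl6. Lyz2 encodes the lysozyme of macrophages and neutrophils and lies at chr10:117277541-117282272 of GRCm38, the assembly also called mm10. It stood at 472 and 563 counts in libraries A and B of Tumor_1 and at 479.6 and 194 in those of Tumor_2, against 0, 0.457 and 6.48 in the lowest, median and highest clone. The groups were far apart, with the lowest tumor library, Tumor_2 B, still far above the highest clone. The difference was 3.67 ± 0.16 (SE; 2 tumors, 23 clones). Lyz2 passed the filter only through the tumor libraries, so it had to differ and no p is given. Lyz1, the near-copy next to it, can share reads with Lyz2, so the division between the copies is uncertain.

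Mmp12, or macrophage elastase (chr9:7344397-7360461), is a protease that macrophages secrete. It stood at 234, 239.9, 239 and 131 counts in Tumor_1 A and B and Tumor_2 A and B, and the clones had a lowest, median and highest value of 0, 0.906 and 16.3. All tumor libraries were above all clones, and the difference was 2.78 ± 0.19 (limma adjusted p = 2.13e-11). Ccl6 (chr11:83587886-83593087), a chemokine made by myeloid cells, had 89.2, 129.9, 105 and 74.8 counts in the tumor libraries, and the clones had 0, 1.29 and 7.64. These groups did not overlap either (difference 1.97 ± 0.18), and Ccl6 too passed the filter only through the tumors. Lsp1, an actin-binding protein known from leukocytes, had 329, 276, 260.2 and 472 counts against 3.25, 36.2 and 149 in the clones, which already expressed it. Its difference was 2.15 ± 0.37 (limma adjusted p = 0.000416), and 0.0793 with Tumor_1 as the only tumor.

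Gpr116, an adhesion receptor of the G-protein-coupled class, stood at 524, 496, 439.8 and 548 counts in the tumors. The clones ran from 18.4 through a median of 38.2 to 292, so the groups did not overlap (difference 2.37 ± 0.43, limma adjusted p = 0.000916). With Tumor_1 as the only tumor its adjusted p was 0.0914. H19, an imprinted noncoding RNA of fetal tissues and tumors, was at 237, 238, 315 and 256 counts, and the clones at 0.557, 14.3 and 153. The tumor libraries were close to each other and all above the clones (difference 2.22 ± 0.54, limma adjusted p = 0.0125). Bst1, an enzyme on the surface of stromal and myeloid cells, was at 239, 264, 347 and 254 counts, and the clones at 1.97, 10.9 and 241, the last in clone G. The tumor means lay above clone G by little, Tumor_1 A lay below it, and the difference was 2.18 ± 0.54 (limma adjusted p = 0.0141). With either tumor alone the adjusted p was 0.138 and 0.509 for H19 and 0.149 and 0.536 for Bst1.

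Kcnq1ot1 and Phxr4 were highest in library B of Tumor_2. Kcnq1ot1, an imprinted RNA that stays in the nucleus (chr7:143213111-143296547), had 7536, 5251, 4078 and 17413 counts in the tumors against 615, 1502 and 3832 in the lowest, median and highest clone. The other tumor libraries were also above every clone. The difference was 2.13 ± 0.40 (limma adjusted p = 0.00105, and 0.0245 without library B of Tumor_2). Phxr4 had 737, 434, 246 and 1675 counts against 51.6, 106 and 256, so by counts Tumor_2 A lay within the clones. On the log2 values tested, Tumor_2 A lay above every clone mean. Its difference was 1.99 ± 0.31 (limma adjusted p = 0.000113, and 0.0171 without that library). Malat1, whose share of reads was highest in the same library, differed by 0.53 ± 0.33 (limma adjusted p = 0.421).

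**Figure D2:**
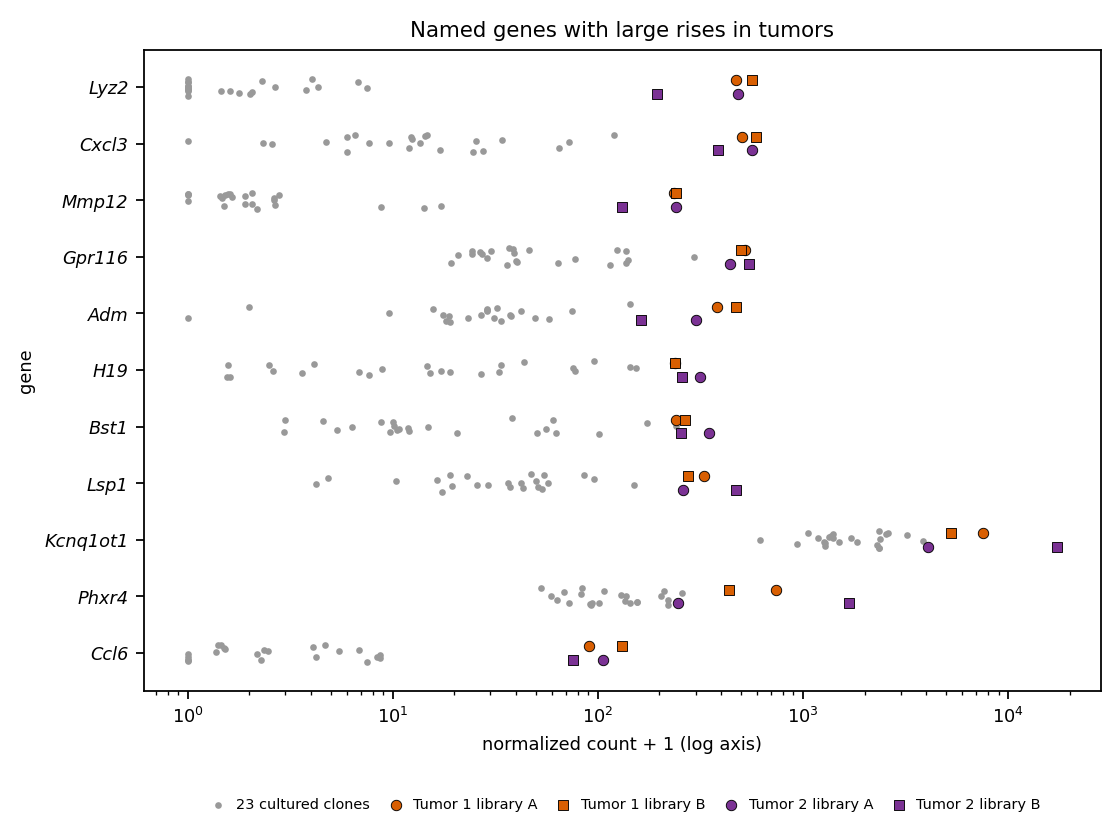
Each row is 1 of 11 genes with large rises, and the x axis is the normalized count + 1 on a log axis. Grey points are the 23 clones, and coloured circles and squares are libraries A and B of each tumor. Lyz2, Mmp12 and Ccl6 leave a wide gap to the clones, whereas Bst1 and Phxr4 touch the highest clone.

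Genes of macrophages and monocytes were higher in part. Of 20 listed genes 15 were tested and 9 were called, all higher and above every clone, but 7 of the 9 had passed the filter only through the tumor libraries and had to differ. Of the other 8 tested, 2 were higher, Mrc1 and Itgam, with a median difference of 0.72 against 0.04 over all genes. The count of calls was 9 without library B of Tumor_2, 10 without clone G, and 4 or 6 with Tumor_2 or Tumor_1 as the only tumor. Mrc1 is the mannose receptor of tissue macrophages and Itgam the alpha chain of the integrin CR3. The 7 were Lyz2, the complement chains C1qb and C1qc, the signalling adapters Tyrobp and Fcer1g, the Fc receptor Fcgr3 and Aif1. The counts of calls in the refits include genes of these 7, so a count that holds gives no separate support.

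Itgam (chr7:128062640-128118491) had 109, 74.9, 42.7 and 90.0 counts in the tumor libraries and 0, 1.64 and 18.4 in the clones. The groups did not overlap (difference 1.72 ± 0.18, limma adjusted p = 1.21e-07). Mrc1 had 59.8, 76.7, 77.7 and 67.8 counts against 0, 12.7 and 35.1, again without overlap (difference 1.11 ± 0.26, limma adjusted p = 0.00849). Tyrobp had 22.8, 28.0, 32.0 and 5.84 counts, and a read of it appeared in 1 of the 46 clone libraries. Its low value was in Tumor_2 B, where Lyz2, C1qb, C1qc, Fcer1g and Fcgr3 were also lowest.

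These levels are small beside those of the carcinoma. The summed counts of the 20 macrophage genes were 1469 in Tumor_1 and 1245 in Tumor_2. They lay within the clones, where the sum ran from 227 to 2426 with a median of 317, and several listed genes had reads in most clones. Among the defining markers, Csf1r was at 36.1, 36.1, 45.6 and 65.4 counts in the tumors and reached 129 in clone A. Cd68 was at 185 to 279 counts in the tumors and at 53.8 to 488 in the clones. Emr1, which encodes the macrophage antigen F4/80, was at 1.90, 5.41, 3.88 and 1.17 counts, against at most 1.07 in a clone. C1qa was at 2.85 to 11.6 counts and had no read in any clone library. Unlike Csf1r and Cd68, these markers lay above all clones by the tumor means, but both were too low to be tested. How much of the rises came from macrophages in the tumors was not tested.

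Of 12 pan-leukocyte genes found, 7 were tested and 3 were higher, namely Laptm5, Coro1a and Ptprc, and 2 were higher without library B of Tumor_2. Laptm5 and Ptprc had passed the filter only through the tumors. Ptprc, the antigen CD45 that all leukocytes carry, had 13.3, 17.1, 4.85 and 10.5 counts in the tumors and up to 8.46 in the clones, so that the groups touched (difference 0.54 ± 0.13), and it was not called without library B of Tumor_2. Coro1a, which organises actin in leukocytes, had 28.5 to 37.9 counts in the tumors and 4.16 to 26.1 in the clones. Of 14 neutrophil genes 7 were tested and 2 were higher, Mmp8 at 21.8, 15.3, 6.80 and 10.5 counts against at most 0.765 in a clone, and the formyl peptide receptor Fpr1 at 23.7, 6.31, 24.3 and 45.6 counts against at most 11.7. Of the defining neutrophil markers, S100a9 had no read in 3 tumor libraries and 1.17 counts in Tumor_2 B. Csf3r had at most 1.17 counts in a tumor library. S100a8 had 12.9 to 17.1 counts in the tumors, within the clones at 0, 2.59 and 855 in the lowest, median and highest. The marker Ly6g had no row in the deposited values and could not be examined. Mmp8 had passed the filter only through the tumors. Of the 7 mast cell and basophil genes only Mcpt8, a protease of basophils, was tested. It had 160.4, 202, 261 and 106 counts in the tumors against 7.43, 50.8 and 382 in the lowest, median and highest clone and was not called (difference 0.95 ± 0.61, limma adjusted p = 0.432). The other 6 had at most 3.88 counts in a tumor library.

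Lymphoid genes were scarcely present. Of the 3 T and NK cell genes that could be tested limma called 0, with 1 at an unadjusted p under 0.05. The summed counts of the 17 listed were 63.0 and 79.6 in the tumors and 32.4 to 78.7 in the clones. Nkg7 and Ncr1 had no read in any tumor library, and Cd4 and Cd8a lay within the clones. Cd3e had 3.80, 3.61, 0 and 3.51 counts in the tumor libraries against at most 0.604 in a clone, and was too low to be tested. In the B cell list the complement receptor Cr2 was higher, at 37.0, 29.8, 27.2 and 91.1 counts against 3.68 to 26.1 in the clones (difference 0.77 ± 0.13, limma adjusted p = 0.000532), while Ms4a1, which encodes CD20, had no read in the tumors. Summed over the 9 genes of that list, Cr2 included, the tumors had 40.8 and 74.7 counts and the clones 7.71 to 30.65. Of 9 dendritic cell genes 3 were tested and 1 was higher, the chemokine receptor Ccr7, at 11.7 to 16.2 counts, with clone G at 18.1. The dendritic cell markers Flt3 and Xcr1 lay within the clones by the tumor means and were too low to be tested. Siglech had at most 1.17 counts in a tumor library, and Cd209a had no read in the tumors. Of 4 MHC class II genes tested only Cd74, the invariant chain, was called, with 397, 288, 354 and 226 counts in the tumors. H2-Aa, H2-Eb1 and H2-Ob of the same list had no read in any tumor library. For Cd74, clone values came close to those of the tumors. Clone C reached 353 and the median clone 35.5, so the groups overlapped (difference 1.87 ± 0.52, limma adjusted p = 0.0296).

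**Figure D3:**
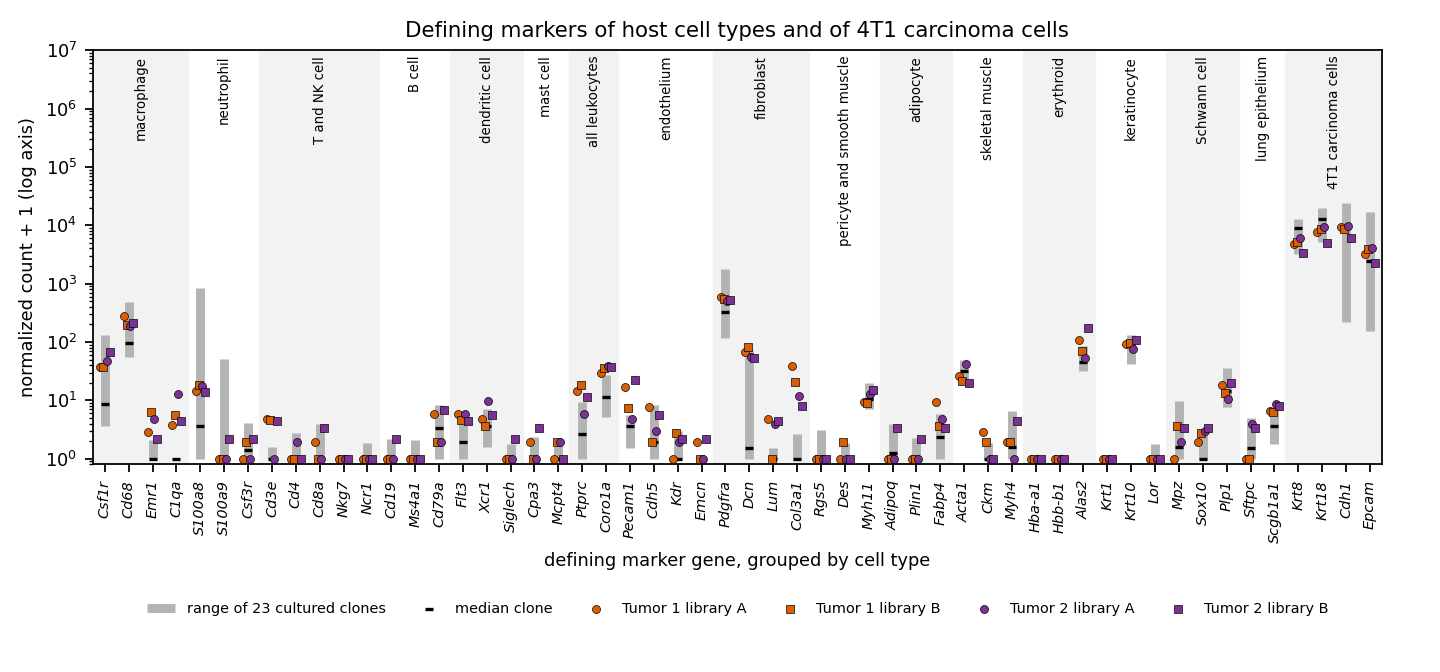
Defining markers of host cell types and of carcinoma cells are set along the x axis, and the y axis is the normalized count + 1 on a log axis. Grey bars are the range of the 23 clones, black dashes the median clone and coloured symbols the 4 tumor libraries. Most host markers sit at or near 0 in the tumors, whereas Krt8, Krt18, Cdh1 and Epcam sit far higher and within or near the clones.

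Carcinoma markers lay within the clones by the means of both tumors. Krt8, a keratin of simple epithelia, had 4809, 5244, 5945 and 3411 counts in the tumors against 3221, 9001 and 12880.0 in the lowest, median and highest clone (difference -0.85 ± 0.34, limma adjusted p = 0.152). Without clone G that p was 0.0413. Cdh1, which encodes E-cadherin, was at 6159.5 to 9669 counts in the tumors and at 217 to 24203 in the clones. Of 27 epithelial genes tested 1 was higher, near the share of 4.15% over all genes tested. This was Cdh3, which encodes P-cadherin, at 46.5, 48.7, 56.3 and 24.5 counts against 0, 5.28 and 33.9 (difference 1.02 ± 0.27, limma adjusted p = 0.0207). Of 12 mesenchymal genes and EMT factors, the regulators of epithelial-mesenchymal transition, 3 were higher, and 2 were without library B of Tumor_2. They were Zeb1, at 57.7 to 91.3 counts against at most 60.1 in a clone, Prrx1 and Cdh11. Vim and Snai1 were not called.

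Chemokines that attract neutrophils were part of the list with the highest median difference of the 50 examined. Of 14 such chemokines, colony-stimulating factors and inflammatory cytokines, all tested, 5 were higher and none was lower, and the median was 1.60. The 5 were Cxcl2, Cxcl3, Cxcl5, Ppbp and Tnf, and the count was the same without library B of Tumor_2. Without clone G it was 9, with Cxcl1, Il1a, Il6 and Csf2 added. With Tumor_2 or Tumor_1 as the only tumor it was 2 and 1.

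Cxcl2, Cxcl3, Cxcl5 and Ppbp are ligands of the receptor Cxcr2 and neighbours on chromosome 5. The 250 bases before the start of 2 of them, both higher in the tumors, are shown. These 2 were picked because each window holds 1 match to the NF-kappaB consensus. That consensus is the site of the transcription factor that drives many inflammatory genes. The sequences are from RefSeq for GRCm38.p6, plus strand, 5′ to 3′, with the match in capitals. For Cxcl2 the window is chr5:90903649-90903898, and the match begins 97 bases before the start. For Cxcl3 it is chr5:90785851-90786100, and the match begins 73 bases before the start.
Cxcl2: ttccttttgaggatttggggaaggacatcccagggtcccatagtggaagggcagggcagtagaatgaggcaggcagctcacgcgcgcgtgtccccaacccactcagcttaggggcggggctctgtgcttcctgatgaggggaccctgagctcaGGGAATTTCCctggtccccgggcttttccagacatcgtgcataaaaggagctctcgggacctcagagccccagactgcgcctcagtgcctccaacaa
Cxcl3: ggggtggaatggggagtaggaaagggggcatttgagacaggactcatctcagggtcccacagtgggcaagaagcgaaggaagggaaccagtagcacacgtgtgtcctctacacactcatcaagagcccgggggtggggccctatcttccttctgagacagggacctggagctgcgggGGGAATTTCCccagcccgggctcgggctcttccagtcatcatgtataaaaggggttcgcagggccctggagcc
Both matches have the same letters, GGGAATTTCC. The consensus was searched on both strands, and a match reads as one on either strand. In windows of 300 bases, 250 before and 50 after the start, 5.89% of 32841 RefSeq starts held a match. The window of Ppbp held none, which says only that these letters were not in it. No window of Cxcl5 was used here, and that of Tnf was not looked at. A match is a description of the letters and does not show binding.

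Cxcl3 (chr5:90786101-90788093) had 504, 593, 564 and 384 counts in the tumor libraries and 0, 11.4 and 119.6 in the lowest, median and highest clone. It was the only one of the 5 with every tumor library above every clone, clone G included (difference 3.19 ± 0.40, limma adjusted p = 3.99e-06). With Tumor_2 or Tumor_1 as the only tumor the adjusted p was 0.00269 and 0.00152.

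Cxcl5 (chr5:90759298-90761625) reached 13791, 18653, 15882 and 6778 counts in the tumors against 91.9 and 312 in the lowest and median clone. Clone G, at 34278, was above the tumors and the other 22 clones were below them. The difference was 4.53 ± 1.21 (limma adjusted p = 0.0242), and without clone G the adjusted p was 0.000619. With Tumor_2 or Tumor_1 alone it was 0.267 and 0.473.

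Cxcl2 had 148, 226, 218 and 124 counts against 1.03 and 4.91 in the lowest and median clone and 558 in clone G (difference 2.09 ± 0.55, limma adjusted p = 0.0213). The tumors again lay between clone G and the rest. Ppbp, the precursor of further Cxcr2 ligands, had 148, 147, 273 and 151 counts, with clone G at 179 inside this range (difference 1.84 ± 0.37, limma adjusted p = 0.00233). Tnf, an inflammatory cytokine, had 39.9, 39.7, 61.2 and 44.4 counts and overlapped with 1 clone, L, at 58.9 (difference 1.03 ± 0.28, limma adjusted p = 0.0274).

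The other members did not pass the threshold with all clones in the fit. Cxcl1 had 3802, 6101, 6182 and 2071 counts in the tumors, 226 in the median clone and 16206 in clone G (difference 3.38 ± 1.15, limma adjusted p = 0.0844, and 0.00945 without clone G). Il1a was at 2704 to 3540.5 counts, with 91.9 in the median clone and 24418 in clone G (limma adjusted p = 0.179, and 0.0479 without clone G). Csf1, the growth factor of macrophages, lay above all clones, at 8498, 8049, 9148 and 8640.4 counts against at most 7387, but its difference of 1.17 ± 0.38 had a limma adjusted p of 0.0726. Csf3, which encodes G-CSF, had 1211 to 1739 counts, and 2 clones were above both tumors (difference 1.66 ± 0.77, limma adjusted p = 0.234).

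**Figure D4:**
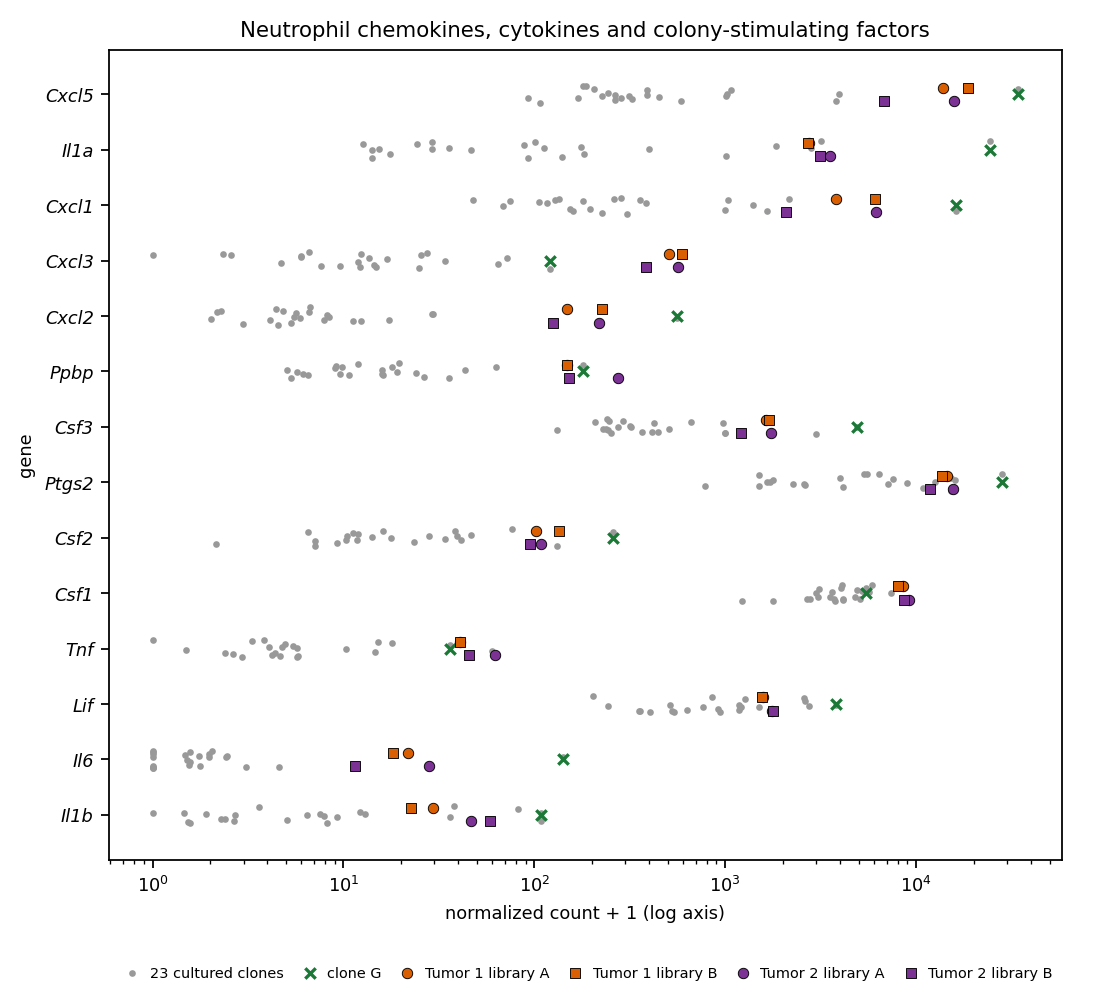
Each row is 1 of the 14 neutrophil chemokines, cytokines and colony-stimulating factors, and the x axis is the normalized count + 1 on a log axis. Grey points are the 23 clones, the green cross is clone G, and coloured circles and squares are libraries A and B of each tumor. In Cxcl5 and Cxcl2 the tumors lie between clone G and the other clones, and in Cxcl3 and Csf1 above all of them.

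Among chemokines of monocytes and lymphocytes 3 of 11 tested were higher, with a median difference of 1.01, and 6 were without clone G. Beside Ccl6 these were Ccl9, at 56.0, 71.2, 68.0 and 30.4 counts against 1.92 in the median clone and 30.2 in clone G (difference 1.39 ± 0.20, limma adjusted p = 3.23e-05), and Cxcl14, with 21.8, 13.5, 19.4 and 7.01 counts and no read in any clone library. Ccl6 and Cxcl14 passed the filter only through the tumors, so Ccl9 was the 1 call among the other 9. Ccl2, the main attractant of monocytes, had 2142, 2758, 2469.7 and 1256 counts in the tumors, 164 in the median clone and 5564 in clone G (difference 3.40 ± 1.18). Its limma adjusted p was 0.092, and 0.0209 without clone G. Of 30 interferon response genes limma called 0, with 2 at an unadjusted p under 0.05 and 3 called with voom weights. Their median difference was 0.45, and without clone G 6 were higher.

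Of 13 complement genes tested 3 were higher: the receptor C3ar1 at 24.5 to 39.8 counts against 0.575 to 20.7 in the clones, the receptor C5ar1 at 10.5 to 31.3 counts against at most 1.72, and properdin, Cfp, at 106, 90.2, 84.5 and 183 counts against at most 89.0. C5ar1 had passed the filter only through the tumors, and Cfp lost its call without library B of Tumor_2 (limma adjusted p = 0.0231 and then 0.198). C3, the central complement protein, had 2521 to 3016 counts in the tumors, 242 in the median clone and 11894 in clone G (limma adjusted p = 0.159, and 0.044 without clone G).

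Collagen genes that were higher in the tumors were scarce there. Of 19 fibrillar and network collagen genes tested 7 were higher, all above every clone. Of these Col3a1, Col5a2, Col5a3 and Col6a3 had passed the filter only through the tumors and had to differ. Among the other 15 genes Col1a1, Col1a2 and Col15a1 were higher, and the median difference was 0.45. Without library B of Tumor_2 6 were higher, and with Tumor_2 or Tumor_1 alone 5 and 4. Col1a1, a chain of the collagen of connective tissue (chr11:94936224-94953042), had 74.0, 33.4, 47.6 and 57.3 counts in the tumors and 0, 1.55 and 11.5 in the lowest, median and highest clone, with no overlap (difference 1.36 ± 0.17, limma adjusted p = 3.42e-06). Col3a1, which fibroblasts make together with collagen I, had 38.0, 19.8, 10.7 and 7.01 counts, and the highest clone had 1.61.

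Of 21 matrix glycoproteins and proteoglycans tested 5 were higher, with and without library B of Tumor_2, and Bgn was the 1 that had passed the filter only through the tumors. Among the other 20 genes 4 were higher and the median difference was 0.75. Hspg2, the basement membrane proteoglycan perlecan, was the abundant one, at 5201, 4627, 5166 and 4910.3 counts against 2160.5, 2989 and 3682 in the clones. Its groups did not overlap (difference 0.77 ± 0.16, limma adjusted p = 0.00381). Bgn, the small proteoglycan biglycan, had 72.1, 63.1, 53.4 and 50.2 counts against 0.426 in the median and 9.44 in the highest clone (difference 1.68 ± 0.13). Vcan, Fbn1 and Dcn were the others. With either tumor alone Bgn and Vcan were called, and Hspg2, Fbn1 and Dcn were not.

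The fibroblast list shares several of these genes. Of 13 tested 8 were higher and 7 were without library B of Tumor_2. Col3a1 and Thy1 had passed the filter only through the tumors, and among the other 11 genes 6 were higher with a median difference of 0.62. With Tumor_2 or Tumor_1 alone 4 and 5 were higher. Thy1, a surface protein of fibroblasts and of other cells, had 17.1, 18.0, 26.2 and 25.7 counts and a read in 1 of the 46 clone libraries. Dcn, the proteoglycan decorin, had 66.4, 80.3, 54.4 and 51.4 counts, 0.535 in the median clone and 71.8 in clone G, so the groups overlapped (difference 1.58 ± 0.31, limma adjusted p = 0.00164). Summed over the 16 listed genes the tumors had 980.1 and 947 counts, within the clones at 197 to 3996 with a median of 767. The sum is led by Pdgfra, at 500.0 to 598 counts in the tumors and 117 to 1756 in the clones, and the fibroblast marker Lum had at most 3.80 counts. The part of host fibroblasts in the matrix genes was not tested.

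Among proteases and their inhibitors Mmp12, Mmp2, Mmp8 and Timp3 were higher out of 15 tested, and 3 of the 15 were without library B of Tumor_2. Mmp8 had passed the filter only through the tumors. Mmp2, which cleaves basement membrane collagen, had 34.2, 22.5, 27.2 and 38.6 counts in the tumors and 0.465, 4.67 and 10.4 in the clones (difference 0.83 ± 0.12, limma adjusted p = 4.51e-05). Timp3, an inhibitor of such enzymes, had 46.5, 37.9, 27.2 and 56.1 counts and lost its call without that library (limma adjusted p = 0.0443 and then 0.145). Of 20 cathepsins and lysosomal proteins 2 were higher, Ctss, the cathepsin of antigen-presenting cells, at 44.6, 37.9, 28.2 and 14.0 counts against at most 0.765 in a clone, which had passed the filter only through the tumors, and Ctsk, whose limma adjusted p of 0.0351 became 0.324 without library B of Tumor_2.

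Other stromal lists gave few calls. Of 8 endothelial genes tested, Pecam1, at 16.1, 6.31, 3.88 and 21.0 counts, and Tek, at 4.51 to 16.4 counts, were called. Both had passed the filter only through the tumors, and without library B of Tumor_2 neither passed it and 0 of the list were called. The endothelial markers Kdr and Emcn had at most 1.80 counts in a tumor library. Acta2, the actin of smooth muscle and myofibroblasts, had 68.3, 46.9, 93.2 and 79.5 counts against 7.90, 15.7 and 51.1 in the clones (difference 0.95 ± 0.17, limma adjusted p = 0.000891), while the pericyte marker Rgs5 had no read and Des at most 0.902 counts. Of 8 muscle genes the giant sarcomere genes Ttn and Neb were higher and highest in Tumor_2 B, at 684 and 669.6 counts, while Ckm, the creatine kinase of muscle, had at most 1.90 counts. Haemoglobin genes Hba-a1 and Hbb-b1 had no read in any tumor or clone library. Reads of genes with near-identical copies cannot be assigned with certainty, so these zeros do not show that blood RNA was absent. The erythroid enzyme gene Alas2 was called (limma adjusted p = 0.0165), and without library B of Tumor_2 its p was 0.345. Keratinocyte, Schwann cell and lung epithelium lists had 0 calls by limma among 2, 5 and 4 genes tested, and 0, 1 and 0 genes at an unadjusted p under 0.05.

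Genes of blood vessel growth rose in part, and low-oxygen genes as a list did not. Of 16 angiogenic ligands tested 3 were higher, with a median difference of 0.79: Pgf, Angpt2 and Angptl4. Pgf, placental growth factor, had 117, 117, 104 and 115 counts, all above the clones at 0.507, 29.7 and 79.2 (difference 1.19 ± 0.32, limma adjusted p = 0.0247). Angptl4, a secreted inhibitor of lipoprotein lipase, had 107, 82.1, 122 and 91.1 counts against at most 52.8 in a clone (difference 1.23 ± 0.28, limma adjusted p = 0.00658). Angpt2, a ligand of the Tie2 receptor that loosens vessels, had 429, 343, 228 and 927 counts, and its limma adjusted p of 0.000916 became 0.092 without library B of Tumor_2. With Tumor_2 or Tumor_1 alone 1 and 0 of the 16 were called. Vegfa, the main vessel growth factor, had 652 to 902 counts, within the clones at 190.4 to 2396 (limma adjusted p = 0.909).

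In the hypoxia list 1 of 25 genes was higher, near the share of 4.15% over all genes tested, and the median difference was 0.08. The higher gene was Adm, which encodes the vasodilator peptide adrenomedullin (chr7:110627657-110629820). It had 381, 474, 301 and 161 counts in the tumors against 0, 28.0 and 143 in the lowest, median and highest clone, with no overlap (difference 2.26 ± 0.38, limma adjusted p = 0.000341, and 0.0677 with Tumor_2 alone). Its window of 300 bases held no match to ACGTG, the core of the hypoxia response element, on either strand, and 19.6% of all windows hold one. Car9, the carbonic anhydrase induced by low oxygen, had 411 to 569 counts within clones at 12.5 to 1503 (limma adjusted p = 0.813), and the glucose transporter gene Slc2a1 had 1998 to 3557 counts within clones at 1631 to 4376. Of 17 glycolysis genes 1 was higher, the lactate exporter Slc16a3, and none was without library B of Tumor_2. The lists of cholesterol synthesis, fatty acid synthesis, unfolded protein response, amino acid stress, NRF2, p53 and TGF-beta had 0 calls by limma. At an unadjusted p under 0.05 they had 0 to 3 genes each, and voom weights gave 1 call in the amino acid stress list and 1 in the TGF-beta list. Of 24 immediate early genes 1 was higher, near the share of 4.15% over all genes tested. This was Fos, at 39.9 to 46.7 counts against 3.02 to 29.7 in the clones (difference 0.78 ± 0.16, limma adjusted p = 0.00231).

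Serpine2 and Slpi, protease inhibitors that were singled out in the study of these clones, were not called in either direction. Serpine2 had 2023, 2052, 1349 and 902 counts in the tumors, and the clones ran from 19.0 through 1546 to 9029.5 (difference 0.36 ± 1.40, limma adjusted p = 0.932). Slpi had 4254, 5450.2, 5551 and 2079 counts, and the clones ran from 26.7 through 1428 to 10949 (difference 1.92 ± 1.66, limma adjusted p = 0.603). The spread among the clones was so wide that 10 of the 23 lay above both tumors for Serpine2 and 6 for Slpi.

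The largest falls outside the range of all clones were in Ung, Arf3, Lrrc47, Klhl21, Gm5643, Pak4, E2f1, Kctd15, Hist1h1e, Cacfd1, 4930427A07Rik and Rhou. Ung, the uracil-DNA glycosylase that removes uracil from DNA (chr5:114130366-114139321), had 891 and 938 counts in Tumor_1 and 375 and 455 in Tumor_2, against 1369, 2199.7 and 3013 in the lowest, median and highest clone. All tumor libraries were below all clones, with Tumor_2 the lower tumor (difference -1.63 ± 0.22, limma adjusted p = 2.21e-05). E2f1, a transcription factor that switches on replication genes, had 761, 768, 346 and 556 counts against 802, 1327 and 2544, with no overlap (difference -1.15 ± 0.28, limma adjusted p = 0.0115). Hist1h1e, a linker histone with near-identical family members, had 1891, 2361, 3122 and 899 counts, so Tumor_1 B and Tumor_2 A lay within the clones, whose lowest was 2175. Its limma adjusted p without library B of Tumor_2 was 0.146, and reads may be shared with other histone genes.

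Arf3, a small GTPase of the Golgi, had 5399, 4939, 2255 and 3444 counts against 6549.9, 9932 and 14265 in the clones (difference -1.38 ± 0.23, limma adjusted p = 0.000285). Pak4, a kinase that acts on the actin skeleton, had 942, 1136, 298 and 640.4 counts against 1164, 1701 and 2567 (difference -1.16 ± 0.23). Both were below every clone in all tumor libraries and lower in Tumor_2 than in Tumor_1. Klhl21, an adapter of a ubiquitin ligase, had 1883, 1929, 583 and 1610.3 counts against at least 1955 in each clone. Rhou, a small GTPase, had 2248, 2212, 1769.8 and 1738 counts against at least 2261. Lrrc47, Gm5643, Kctd15, Cacfd1 and 4930427A07Rik differed by -1.28 to -1.03. In Ung, Arf3, Lrrc47, Klhl21, Pak4, E2f1, Cacfd1 and 4930427A07Rik the lowest tumor value was in library A of Tumor_2. It was in library B of Tumor_2 for Gm5643, Hist1h1e and Rhou, and in library B of Tumor_1 for Kctd15. No refit left out library A of Tumor_2 alone, so its part in these falls was not tested. With Tumor_1 as the only tumor none of the 12 was past the threshold, and with Tumor_2 alone Kctd15, Cacfd1 and Rhou were not past it.

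**Figure D5:**
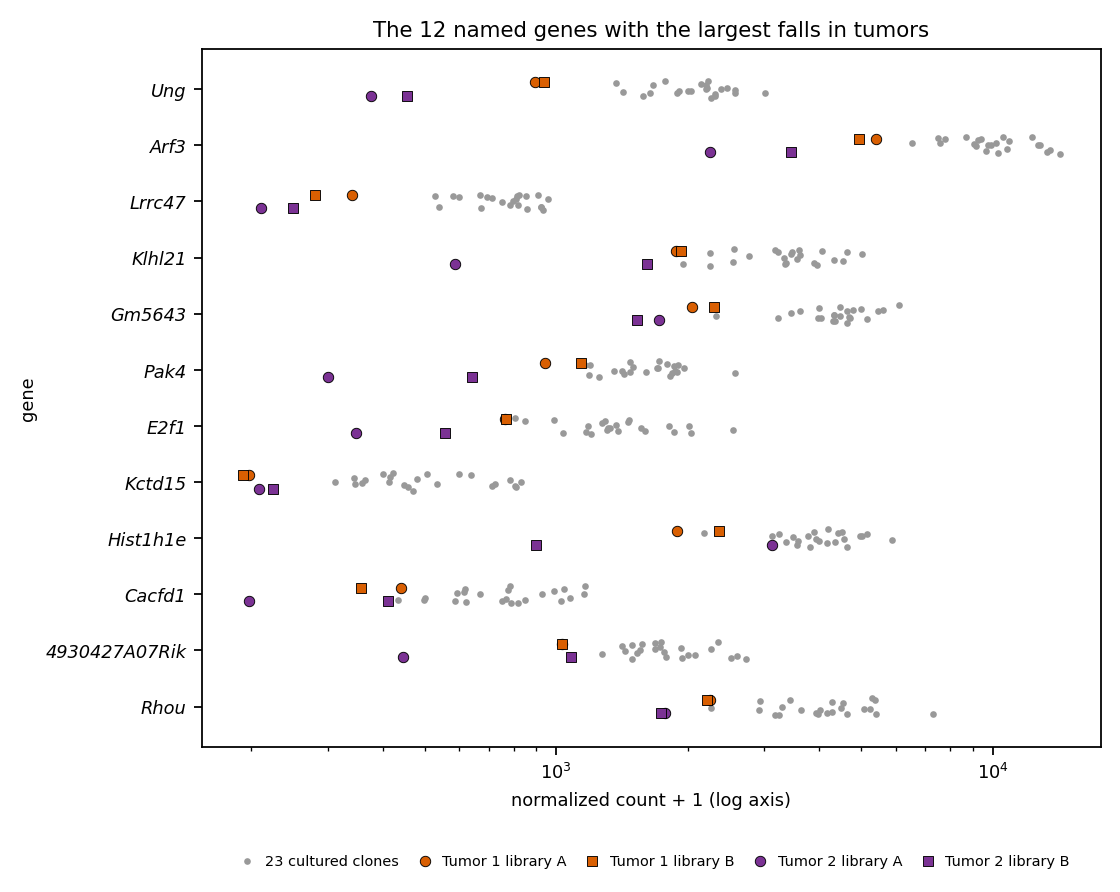
Each row is 1 of the 12 genes with the largest falls, and the x axis is the normalized count + 1 on a log axis. Grey points are the 23 clones, and coloured circles and squares are libraries A and B of each tumor. In Ung, Arf3 and Pak4 both tumors lie below every clone and Tumor_2 lies lowest.

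Of 24 DNA replication genes 4 were lower, Mcm4, Mcm7, Pcna and Cdt1, none was higher, and the median difference was -0.37. The summed counts of the list were 49826 in Tumor_1 and 44733 in Tumor_2, below the lowest clone at 54269. Mcm7, a subunit of the replicative helicase, had 2446, 2786, 2684 and 1807 counts against 3248, 4282 and 6601 in the clones, with no overlap (difference -0.89 ± 0.19, limma adjusted p = 0.00417, and 0.0263 without library B of Tumor_2). Pcna, the sliding clamp of DNA polymerase, had 2585, 3743, 3966 and 1614 counts, of which 2 lay within the clones, whose lowest was 3191. Without that library Mcm7 was the 1 gene of the list still called, with Tumor_2 alone 1 was called and with Tumor_1 alone 0.

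Of 25 mitosis and proliferation genes Ccnb1 and Cdk1 were lower, both within the range of the clones, and none was without library B of Tumor_2. Cdk1, the kinase that starts mitosis, had 3194, 3802, 4038 and 2494 counts against 3477, 5511 and 6398 in the clones (difference -0.66 ± 0.15, limma adjusted p = 0.0083, and 0.0954 without that library). The list's summed counts of 140360.2 and 145926 lay inside the clones at 113399 to 158883. Of 26 oxidative phosphorylation genes Ndufa9 and Atp5b were lower, and of 30 ribosomal protein genes Rpl3 and Rpl5. In both lists none was called without library B of Tumor_2, and the median moved from -0.19 to 0.05 and from -0.20 to 0.16. Cry2, a repressor of the circadian clock, was the 1 lower gene of 14 in its list, at 396, 356, 250.5 and 579.6 counts against at least 468 in each clone (difference -0.89 ± 0.26, limma adjusted p = 0.0426).

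Xist, the RNA that silences an X chromosome in female cells (chrX:103460373-103483233), was the other nuclear RNA called beside Kcnq1ot1. It had 88.2, 45.1, 46.6 and 161 counts in the tumors and 0.874, 2.70 and 7.83 in the lowest, median and highest clone. All tumor libraries were above all clones (difference 1.65 ± 0.12), and Xist had passed the filter only through the tumors. The sex of the mice is not in the labels, and the part of host cells in this difference was not tested.

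A separate rule took genes that averaged under 1 count in every clone and at least 10 in each tumor, and 11 genes met it, which by this rule had to differ. They were Msr1, Ctss, Igfbp5, Tyrobp, Laptm5, C1qb, Clec4n, Lyz1, Cxcl14, Wfdc17 and Ms4a6d, and the same 11 were among the 13 found without library B of Tumor_2. Msr1, the macrophage scavenger receptor, was the most abundant, at 81.6, 71.2, 60.2 and 74.8 counts against at most 0.765 in a clone. The others had tumor means of 15.1 to 31.2 counts. Igfbp5, a secreted binding protein of insulin-like growth factors, was the 1 of the 11 with more counts in Tumor_2, 41.7 and 29.2, than in both libraries of Tumor_1, 9.49 and 10.8. No gene met the converse rule, at least 10 counts in every clone and under 1 in each tumor.

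The means of the tumors correlated at 0.996 across genes, or 0.994 without library B of Tumor_2, and pairs of clones at 0.915 to 0.994 with a median of 0.969. Tumor_1 correlated with single clones at 0.948 to 0.980 and Tumor_2 at 0.944 to 0.973, or 0.945 to 0.977 without its library B, in both cases lowest with clone S and highest with clone I. Genes share their libraries and are not independent, so these values are descriptions. Genes were counted where the tumor means differed by 1 or more on the log2 scale. Both libraries of the higher tumor also had to lie above both of the other. By this rule no gene was higher in Tumor_2 (0.0% of those tested), and 5 were higher in Tumor_1 (0.036%): Trmt61a, Dnajb1, Pak4, 3110082I17Rik and Ung. Without library B of Tumor_2, which leaves 1 library on that side, these counts were 3 and 24. With 1 specimen on each side these differences have no replicate check.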

How the data were processed

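Per the labels' protocols, cDNA was made from 100 ng of total RNA by NuGEN Ovation amplification and read over 76 bases. The tools named in the submitters' processing notes are Bowtie2, HTSeq and DESeq, with the build mm10. Tool versions and the counting's strand setting were not given in the sources used here. The authors deposited log2 values for 23481 genes in 54 libraries. From the values, they follow a variance-stabilising curve with a floor of 5.03 for a gene without reads. Inverting the curve gave normalized counts, which were whole reads, within 0.01, in 100% of values after rescaling each library. Overlapping genes, antisense partners and near-identical copies cannot be told apart. In 27 rows the symbol had become a date, and these are not named.

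Genes with at least 10 normalized counts in at least 2 of the 50 libraries were tested on the deposited log2 values, with 1 mean per tumor and per clone. The test was limma 3.58.1 in R 4.3.3, two-sided, with a variance trend and Benjamini-Hochberg adjustment over all genes tested, and it was tested on simulated data. The design had foreseen log2(normalized count + 1), which was run as an alternative because the deposited unit was already log2. A count test was not run. Most alternatives changed 1 setting. The stricter limits for genes absent from clones changed the clone and the tumor limit together. The voom fit took reads summed per specimen, with other library sizes, precision weights and no variance trend. The block fit took the 50 libraries as units, with the letter as a factor and a correlation within specimens. The counts of these fits therefore do not show the effect of 1 setting.

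Named genes were the 12 largest rises and falls among called genes outside the range of all clones with at least 50 counts in the higher group, up to 4 called genes per list and direction, the defining markers, Serpine2 and Slpi. Of the 12 rises, 1 is not reported here. Genes under 1 count in every clone and at least 10 in each tumor and further list members are named beside them, the latter chosen after their values were seen. The groups and the 50 gene lists were chosen with earlier results of these data known. The refits without library B of Tumor_2 and without clone G, the correlations without that library and the NF-kappaB search were chosen after seeing the data. Gene positions and promoters are from RefSeq for GRCm38.p6, and lung libraries entered 1 alternative only. The number of reads limits what scarce genes can show.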

Additional observations from a re-analysis of the deposited data

Results flagged for a closer look

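In 5 of 89 measures examined, 1 tumor library stood far from the other 3 by the size of its gap relative to the range of the 4 values. Chance gives this in about 1 in 20 such groups. Of the 5, 3 were in library B of Tumor_2. Mmp12 was at 131 counts there and at 234, 239.9 and 239 in the others. Cr2 was at 91.1 counts there against 37.0, 29.8 and 27.2, and Ogn, a small proteoglycan also called mimecan, was at 116 against 63.6, 64.0 and 53.4. In library A of Tumor_2, Ppbp was at 273 counts against 148, 147 and 151, and 4930427A07Rik was at 444 against 1030.5, 1028 and 1081. Mmp12, Cr2, Ogn, Ppbp and 4930427A07Rik were called with and without library B of Tumor_2.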

How the results depend on the processing

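Only 2 tumors were measured, and the counts moved with most choices. Higher and lower genes numbered 576 and 199 with all libraries, 242 and 95 without library B of Tumor_2, 142 and 50 with the A libraries alone, and 193 and 118 with a filter at 50 counts. No filter gave 2005 higher genes, log2(normalized count + 1) 346 and voom weights 904. Leaving out 1 tumor gave 73 to 193 higher and 0 to 45 lower genes, and the lone tumor is then assumed to vary like the clones. Genes above all clones then numbered 670 to 1284 and those below 362 to 782. Without library B of Tumor_2, 383 lay above all clones, and 27 genes met the rule for differences between the tumors. With at least 50 counts in each tumor and no clone read, 0 genes were found in place of 11. With the library letter as a replicate block the counts were 224 and 112. Deviations of libraries that share a letter correlated at a median of 0.0697 over 300 pairs of specimens (from -0.658, between the tumors, to 0.628), so not every pair deviated together, and nothing in the labels says that a letter marks a shared batch.

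Of the named genes with a test, 20 lost the call without library B of Tumor_2, 25 with the A libraries alone, 25 under the block, 20 on log2(normalized count + 1), and 39 and 59 with Tumor_2 or Tumor_1 alone. Serpine2, uncalled throughout, had a difference of -0.060 with Tumor_2 alone and 0.79 with Tumor_1 alone. Median-centring, the B libraries alone, a fit with the lung metastases, one without intravasating clones, one without a variance trend and one without clone G kept both counts within 1.5 times. The depth limits genes under about 10 counts.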
